A study of Drosophila melanogaster with 8 samples.

Results

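The course described here follows Dnmt2 mutant flies through heat shock and recovery, at the long terminal repeat (LTR) of the retrotransposon Invader 4 in Drosophila melanogaster. Its members are the 4 of 8 libraries of the series whose labels name the Dnmt2 mutant, chosen by label and by no measured value. All 4 groups were w1118 flies homozygous for a Dnmt2 mutation, whose allele the labels do not name, and all were adults of mixed sex, 3 days after hatching, taken as whole bodies. The groups were standard culture without heat shock, heat shock (37 °C for 1 h in a water bath, then 5 h at room temperature), and the same heat shock followed by 1 day or by 3 days of recovery. The 4 matching w1118 wild type groups are used only where the course is set against theirs. Every group had 1 library, the number of flies behind it is not given in the sources used here, and whole bodies mix all tissues. The amplicon does not include the Dnmt2 gene, so the genotype was not checked in the reads, and the positions of the element's copies in the genome were not analysed here. With 1 library a stage, each test below compares the reads of a pair of libraries, and the spread between flies or cultures of a stage was not measured.

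Retrotransposons copy themselves through RNA, and an LTR carries the signals that start and end that RNA. Dnmt2 belongs to the DNA methyltransferase family by sequence, and its best established substrate is transfer RNA, where its methylation protects the molecule from cleavage under stress such as heat. Bisulfite turns unmethylated cytosine into uracil, which is read as T, while 5-methylcytosine stays C. A C read at a reference cytosine can thus be a methylated or an unconverted cytosine, and controls that would tell these apart were not analysed here. The study's comparison asks whether retained C at the element changes with heat shock and whether it returns in recovery when Dnmt2 is mutant.

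The 4 libraries held 1505 reads at standard, 2061 after heat shock, 2097 after 1 day and 2275 after 3 days, 7938 in all. The amplicon was 149 bases long with 27 cytosines, and each cytosine was called in at least 1063 reads of every library. A thymine background was taken as C among C and T calls at the 32 reference thymines of the same reads. It was 0.175% at standard, 0.164% after heat shock, 0.170% after 1 day and 0.140% after 3 days. No later stage passed the test against standard there (adjusted p from 0.379 to 0.865, permutation of whole reads). Thymines do not measure unconverted cytosine, so subtracting this background leaves that part of the levels in place. Gaps at C42, one of the cytosines that form a run of T once converted, were found in 29.1% of standard reads, 12.0% after heat shock, 11.4% after 1 day and 4.70% after 3 days. Cytosines are named by their position, counted from 1 at the 5′ end of the reference. Wilson intervals of levels treat each call as separate, and intervals and floors cover counting error only, since PCR reads without molecular identifiers are not independent molecules.

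Which copies of the LTR were sequenced also differed between libraries. Base differences from the reference that conversion cannot make were counted where they averaged over 0.5% of reads in the course, which gave 35. The average was over the same 4 libraries that are compared here. Some differences, such as G32T and G85T, thus entered only through the libraries where they were frequent. The shares that passed depend on this filter. With Fisher's exact test, adjusted over these 35, 12 passed 0.05 between heat shock and standard (34.3% of those tested) and 14 between 3 days and standard (40%). Between 1 day and standard 0 passed (0%), with 2 at an unadjusted p under 0.05, and between 3 days and heat shock 0 passed (0%), with 1 at an unadjusted p under 0.05. For 1 day against heat shock 8 passed (22.9%), and for 3 days against 1 day 12 (34.3%). The standard and 1 day libraries thus lay close together in their copies, as did the heat shock and 3 days libraries.

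G32T was carried by 31 of 2055 reads after heat shock (1.51%) and 39 of 2265 after 3 days (1.72%), against 0 of 1504 reads at standard and 0 of 2093 after 1 day. A count of 0 allows up to 0.199% at standard and 0.143% after 1 day. The exact test gave an adjusted p of 2.25e-06 for heat shock against standard and 1.12e-07 for 3 days against standard. G32T passed the filter on average share only through the heat shock and 3 days libraries, the same ones tested here against standard. These p-values follow that selection, so they add no separate evidence beyond the counts. G85T behaved alike, in 1.22% of reads after heat shock and 1.51% after 3 days, against 0 of 1497 reads at standard and 0 of 2072 after 1 day (adjusted exact p of 1.47e-05 and 5.46e-07 against standard). G85T passed the filter through the same libraries, so the same limit holds for its p-values. G115T was found in 1.98% of reads after 3 days, 1.44% after heat shock and 0.146% after 1 day, against 0.135% at standard (adjusted exact p of 5.46e-07 for 3 days). The opposite was seen at C102G, carried by 2.31% of reads after heat shock and 2.32% after 3 days, against 5.74% at standard and 5.38% after 1 day (adjusted exact p of 3.55e-06 for heat shock and 8.96e-07 for 3 days against standard).

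Together 7 differences were under 0.5% of reads at standard and 1 day and past the threshold against standard in both other libraries. They are G13A, G31A, G32T, A34G, G47A, G85T and G115T, a list chosen after its values were seen. Reads with 3 or more of them numbered 22 after heat shock (1.07%) and 27 after 3 days (1.19%), against 0 of 1505 at standard and 0 of 2097 after 1 day. In wild type the pattern ran the other way, with 0 of 1864 such reads after heat shock and 0 of 1611 after 3 days, 26 of 2352 after 1 day (1.11%), and 37 of 2670 at standard (1.39%). Of C and T calls in reads with any of the 7 differences, C made up 1.28% after heat shock and 1.20% after 3 days, against 1.55% and 1.53% in the other reads of the same libraries, a comparison that was not tested. Copies of the libraries labelled mutant heat shock and 3 days were thus seen in those labelled wild type standard and 1 day. The genotype labels of a pair of stages exchanged between mutant and wild type would give the same pattern, and the files do not settle this, so every value given here belongs to the library labelled with that genotype and stage. Heat shock and 3 days against standard, 1 day against heat shock and 3 days against 1 day compare libraries of unlike copies. Stage, copy content and a possible exchange of labels cannot be told apart in these pairs. Between 1 day and standard, and between 3 days and heat shock, no copy difference passed the adjusted threshold. These pairs are called like in copies, which does not make their copies equal. T77G was in 4.14% of reads at standard and 2.41% after 1 day (unadjusted Fisher exact p = 0.00459). G83A was in 1.37% after heat shock and 0.531% after 3 days (unadjusted Fisher exact p = 0.00612).

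**Figure D1:**
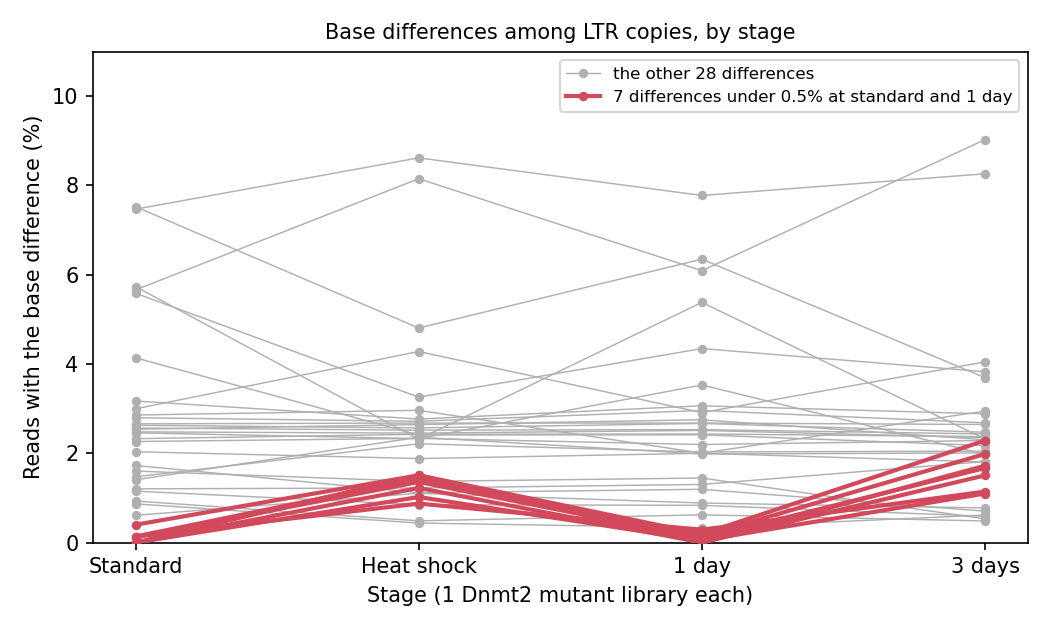
Share of reads (%, vertical axis) with each of 35 base differences from the reference in the 4 Dnmt2 mutant libraries, in the order standard, heat shock, 1 day and 3 days. Red lines are the 7 differences under 0.5% at standard and 1 day, which reach up to 1.51% after heat shock and 2.29% after 3 days, and grey lines are the other 28.

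A single read stood apart from all others of the course. In the heat shock library 1 of 2061 reads (0.0485%, 95% Wilson interval 0.00857% to 0.274%) had C at 27 of 27 cytosines, CpG or not. Its bases differed from the reference at 2 positions, A127G and a gap, and it had C at 0 of 32 reference thymines. No other read of the 4 libraries had more than 4 C, and no wild type read more than 5. This read alone supplied 27 of 836 C calls, or 3.23% of those of the heat shock library. Such reads were 0 of 1505 at standard, which allows up to 0.199%, 0 of 2097 after 1 day (up to 0.143%) and 0 of 2275 after 3 days (up to 0.132%). It is called the all-C read below. Its origin was not tested, and the main heat shock values are given with and without it.

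Retained C was highest 1 day after the heat shock, and the libraries before and after it were close to each other. Of C and T calls at cytosines, C made up 1.59% at standard (630 of 39587 calls, 95% Wilson interval 1.47% to 1.72%), 1.54% after heat shock (1.44% to 1.64%), 1.76% after 1 day (1.65% to 1.87%) and 1.51% after 3 days (1.41% to 1.61%). Without the all-C read the heat shock library stood at 1.49%, below the 3 days library. The 1 day interval lies above that of 3 days and overlaps that of standard.

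Against standard, heat shock differed by -0.0564 percentage points (95% interval -0.246 to 0.133, adjusted permutation p = 0.708), or by -0.105 without the all-C read (-0.269 to 0.0581, adjusted p = 0.302). For 1 day the difference was 0.165 (-0.00259 to 0.332, adjusted permutation p = 0.107), and the 3 days library differed from standard by -0.0852 (-0.247 to 0.0768, adjusted permutation p = 0.450). All p-values for levels come from 100000 permutations of whole reads, two-sided, and are adjusted by Benjamini-Hochberg across the 6 pairs of stages, and the intervals from standard errors clustered by read. No later stage passed 0.05 against standard, and the 3 intervals over all reads run from -0.247 at the lowest to 0.332 percentage points at the highest.

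Of the 3 pairs of later stages 2 passed, and both include the 1 day library. Both compare libraries of unlike copies, so stage, copy content and a possible exchange of labels cannot be told apart in them. Retained C rose to 1.76% after 1 day, against the 1.54% of the heat shock library, a gain of 0.221 points (95% interval 0.0442 to 0.398, permutation p = 0.0118, adjusted p = 0.0354). Without the all-C read the rise was 0.270 (0.121 to 0.419, adjusted permutation p = 0.00216). Among reads without the 7 copy differences it was 0.202 with an adjusted permutation p of 0.0762, which ends the call. Retained C then fell to 1.51% after 3 days, against 1.76% after 1 day, a difference of -0.250 percentage points (-0.397 to -0.103, permutation p = 0.00101, adjusted p = 0.00606). Leaving out reads with the 7 copy differences made it -0.221 with an adjusted permutation p of 0.0246. That step does not make the copies alike. Other differences also passed between these libraries, such as C102G, with 5.38% of all reads after 1 day and 2.32% after 3 days. Among reads that match the reference outside cytosines both calls ended, at 0.233 for 1 day against heat shock and -0.137 for 3 days against 1 day (adjusted permutation p = 0.147 and 0.365). Counting identical call patterns once turned the first to -0.0801 and ended the second at -0.0542 (adjusted permutation p = 0.883 for each). That step removes most fully converted reads, so its values are not levels over all reads. Subtracting the thymine background left 1 day against heat shock at 0.215 with an adjusted permutation p of 0.0505. Between 3 days and heat shock, libraries of like copies, the difference was -0.0288 (-0.201 to 0.143, adjusted permutation p = 0.745), or 0.0200 without the all-C read.

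**Figure D2:**
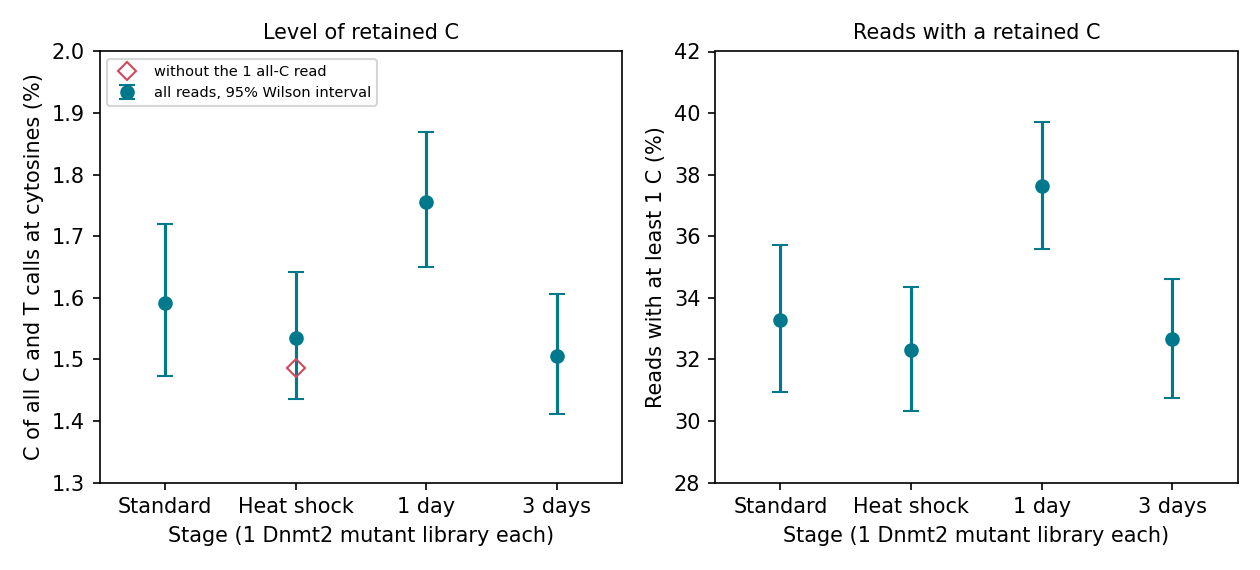
Left, level of retained C (% of C and T calls at the 27 cytosines) and right, share of reads with at least 1 C (%), for the 4 Dnmt2 mutant libraries in stage order; bars are 95% Wilson intervals, both axes start above 0, and the open diamond leaves out the all-C heat shock read. The 1 day library is the highest in both panels, at 1.76% and 37.6%.

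Counting each read once, by whether it held any C, the 1 day library also stood apart from standard. Reads with at least 1 C made up 33.3% at standard (501 of 1505, 95% Wilson interval 31.0% to 35.7%), 32.3% after heat shock (666 of 2061, 30.3% to 34.4%), 37.6% after 1 day (789 of 2097, 35.6% to 39.7%) and 32.7% after 3 days (743 of 2275, 30.8% to 34.6%). The 3 libraries other than 1 day lay within 1 percentage point of each other. The 1 day share was 4.34 percentage points above standard (Fisher's exact test, adjusted p = 0.0149), in libraries between which no copy difference passed the threshold. It was also 5.31 points above heat shock (adjusted Fisher exact p = 0.00183), and 3 days against 1 day gave -4.97 points (adjusted Fisher exact p = 0.00183). Both of these pairs hold libraries of unlike copies. Heat shock differed from standard by -0.975 and 3 days by -0.630 percentage points (adjusted Fisher exact p = 0.809 and 0.820). Reads that match the reference at every other base, a subset of each library, no longer gave these 3 calls, with 4.33, 3.84 and -2.70 percentage points and adjusted Fisher exact p of 0.164, 0.164 and 0.330, where 1211 reads were left after 1 day, 1089 after heat shock, 1248 after 3 days and 799 at standard.

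The gain in reads after 1 day lay mostly in reads with a single C. These numbered 392 of 1505 reads at standard, 535 of 2061 after heat shock, 628 of 2097 after 1 day (29.9%) and 608 of 2275 after 3 days (26.7%). Reads with 2 C were 5.98%, 5.63%, 6.63% and 4.88% in the same order. Reads with 3 or more were few, 19 at standard, 15 after heat shock (the all-C read among them), 22 after 1 day and 24 after 3 days. These classes were not tested one by one.

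Along the amplicon, cut into 3 segments of equal length, retained C was highest in the 3′ segment and lowest in the middle one in 4 of 4 libraries. Levels in the 5′ segment, which holds 14 cytosines, were 1.53% at standard, 1.40% after heat shock, 1.63% after 1 day and 1.44% after 3 days. The middle segment, with 5 cytosines, had 1.17%, 1.28%, 1.54% and 1.17% in stage order. In the 3′ segment, with 8 cytosines, the levels were 1.98%, 1.94%, 2.13% and 1.85%. Over the 27 cytosines, Pearson's r between stages ran from 0.486 for 1 day with heat shock to 0.696 for 3 days with heat shock, a description of profiles that share sequence and primers.

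No segment of the amplicon passed the threshold in any later stage against standard. The largest difference was in the middle segment after 1 day, 1.54% against 1.17% at standard, or 0.368 percentage points (95% interval 0.0286 to 0.707, permutation p = 0.0340, adjusted p = 0.306 over the 9 segment tests). The 5′ segment differed by -0.125 after heat shock, 0.0979 after 1 day and -0.0919 after 3 days (adjusted permutation p = 0.683 for each). In the 3′ segment the differences were -0.0338, 0.157 and -0.124 percentage points in stage order (adjusted permutation p from 0.683 to 0.959). After 1 day the point estimate was above standard in all 3 segments.

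**Figure D3:**
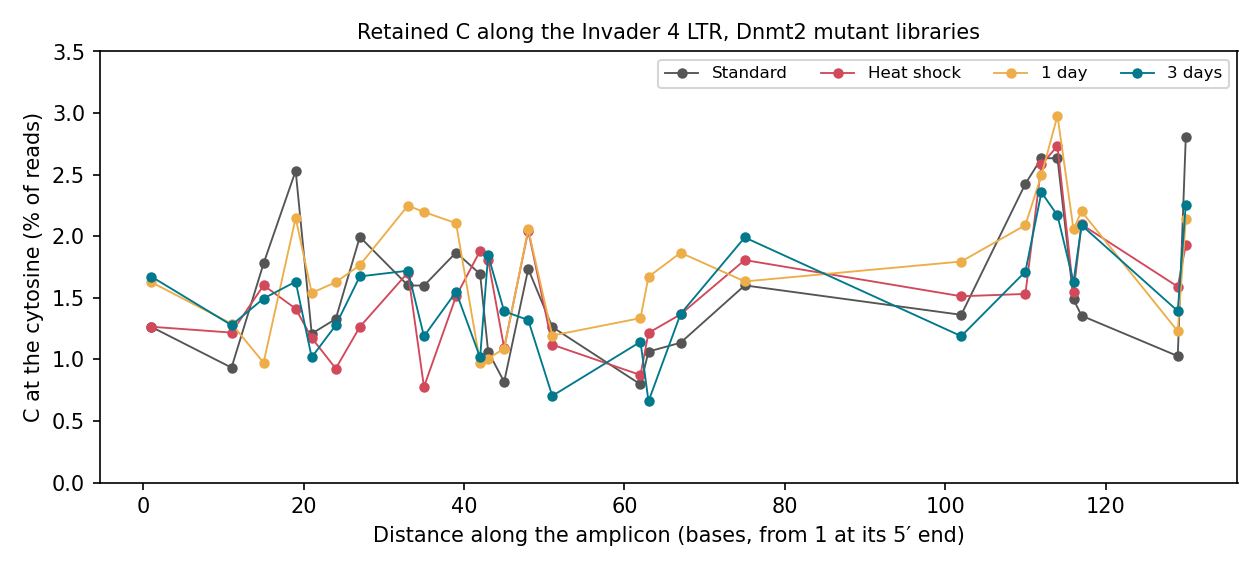
C at each of the 27 cytosines (% of reads with C or T, vertical axis) by distance along the amplicon in bases, with 1 line for each Dnmt2 mutant library. The highest point of each line is at C130 (standard), C114 (heat shock and 1 day) or C112 (3 days), and the 1 day line is the top one at 14 of 27 cytosines.

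C114 and C112 carried the most retained C. C114, in CpG context, had 2.63% at standard, 2.73% after heat shock, 2.98% after 1 day and 2.17% after 3 days (mean 2.63% ± 0.339, SD, n = 4 libraries). C112, a CHH cytosine (H is any base but G), had 2.63%, 2.58%, 2.50% and 2.36% and the smaller spread (mean 2.52% ± 0.121). Both ranked among the 5 highest in 4 of 4 libraries. C130 had 2.80%, 1.93%, 2.14% and 2.26%, in the top 5 of 3 libraries, and C117 1.36%, 2.10%, 2.20% and 2.09%, also in the top 5 of 3 libraries. The other cytosines among the 10 highest were C110, C19, C33, C48, C39 and C75, with means from 1.76% to 1.94%. The lowest mean, at C62 (named after its values were seen), was 1.04%.

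Of single cytosines, 0 of 27 passed the adjusted threshold in heat shock, 1 day or 3 days against standard (0% in each, Fisher's exact test). At an unadjusted p under 0.05 there were 2 after heat shock, both lower, 1 after 1 day, also lower, and 0 after 3 days. The 2 after heat shock were C19 and C35, both CpG. C19 had 1.41% after heat shock (29 of 2054 reads), against 2.53% at standard (38 of 1501 reads), a difference of -1.12 percentage points with an adjusted Fisher exact p of 0.327. The 1 after 1 day was C15, with 0.973% after 1 day, against 1.78% at standard (adjusted Fisher exact p = 0.666). At C15 the levels after heat shock and after 3 days were 1.60% and 1.49%.

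C35, a CpG cytosine, gave the only call among the 6 pairs of stages, at 1 day against heat shock (1 of 27, or 3.7%). It retained C in 46 of 2094 reads after 1 day (2.20%), against 16 of 2059 after heat shock (0.777%), a rise of 1.42 percentage points (adjusted Fisher exact p = 0.00441). C35 stood at 1.60% at standard and 1.19% after 3 days, so heat shock held its lowest and 1 day its highest value. Without the all-C read the heat shock level of C35 was 0.729% (adjusted Fisher exact p = 0.00220). Among reads without the 7 copy differences C35 differed by 1.44 points (adjusted Fisher exact p = 0.00406). The 1 day and heat shock libraries also differed in copies other than these. Counting identical call patterns once left 0 calls, a step that removes most fully converted reads. The pairs 3 days against heat shock and 3 days against 1 day had 0 calls (0% each), with 1 and 3 cytosines at an unadjusted Fisher p under 0.05. The nearest to a call was C63, also named after its values were seen, with 0.660% after 3 days, against 1.67% after 1 day (adjusted Fisher exact p = 0.0659).

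Some cytosines kept the same direction from standard at all later stages. C117 had the largest or second largest gain at each, by 0.741 percentage points after heat shock, 0.847 after 1 day and 0.735 after 3 days. C110 had 1.53% after heat shock, 2.09% after 1 day and 1.71% after 3 days, against 2.43% at standard, and C19 and C130 were likewise below their standard level at all 3. A low or high standard library shifts all 3 differences at once, since they share it. C43 had 1.81% after heat shock and 1.85% after 3 days, against 1.06% at standard and 1.01% after 1 day. C42, beside it, had 1.88% after heat shock, 0.971% after 1 day and 1.02% after 3 days, against 1.69% at standard. Whether the gaps at C42 bear on these levels was not tested. The remaining cytosines with the largest gains were C129 by 0.564 points after heat shock, C67 by 0.730 and C33 by 0.648 after 1 day, and C45 by 0.572 after 3 days.

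**Figure D4:**
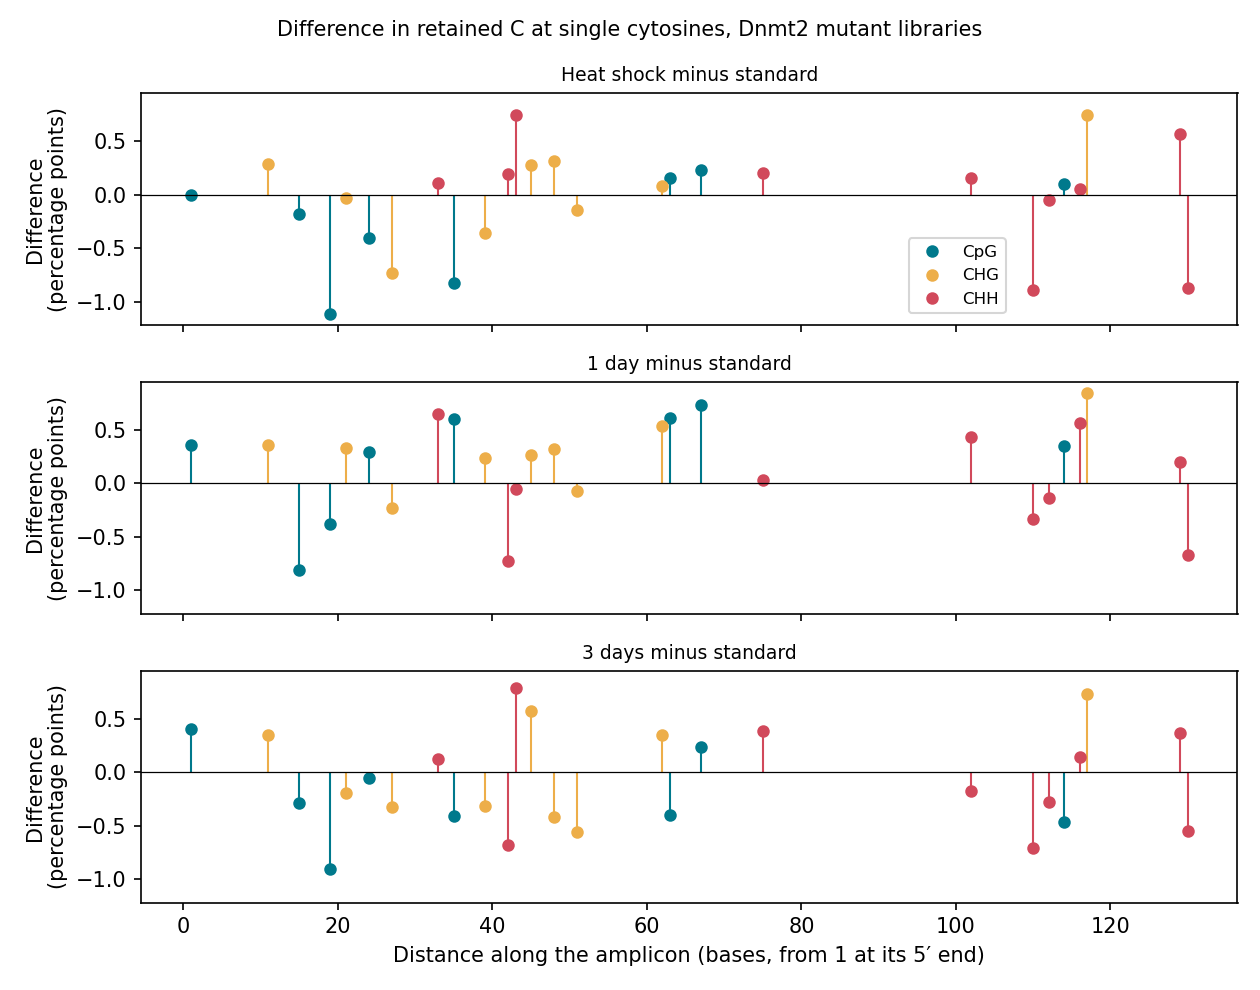
Difference from standard in C at each cytosine (percentage points, vertical axis) by distance along the amplicon in bases, for heat shock, 1 day and 3 days in turn, coloured by context. Points above 0 number 16 of 27 after heat shock, 18 after 1 day and 11 after 3 days, and no single point passed the adjusted threshold.

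By sequence context, CpG cytosines spanned the widest range over the course and CHH cytosines the narrowest. The 8 CpG cytosines had 1.66% at standard, 1.41% after heat shock, 1.89% after 1 day and 1.43% after 3 days. The 9 CHG cytosines had 1.33%, 1.38%, 1.62% and 1.35% in stage order, and the 10 CHH cytosines 1.78%, 1.79%, 1.78% and 1.71%. Of the 9 tests against standard none passed the adjustment. CpG differed by -0.257 percentage points after heat shock (95% interval -0.570 to 0.0554) and -0.235 after 3 days (-0.530 to 0.0609), each with an adjusted permutation p of 0.352, and by 0.220 after 1 day (adjusted permutation p = 0.387). Without the all-C read the CpG difference after heat shock was -0.305 (-0.603 to -0.00756, permutation p = 0.0405, adjusted p = 0.182). CHG after 1 day differed by 0.288 points (0.0193 to 0.557, permutation p = 0.0398, adjusted p = 0.352). CHH after 1 day had an interval from -0.285 to 0.284 percentage points around a difference of -3.51e-05. Whether the contexts differ from each other in their course was not tested.

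Taken by number, 7 of 8 CpG and 8 of 9 CHG cytosines were higher after 1 day than after heat shock, against 5 of 10 CHH cytosines and 20 of 27 over all. At 3 days against 1 day 6 of 8 CpG, 8 of 9 CHG and 5 of 10 CHH cytosines were lower, 19 of 27 over all. Median differences over all 27 were 0.282 percentage points for 1 day against heat shock and -0.349 for 3 days against 1 day. These counts are a description, because the cytosines of a read were measured together.

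Set against the wild type libraries, the course of the mutant libraries differed at heat shock, by a test over reads of 1 library per genotype and stage. There the change from standard was -0.0564 percentage points in the Dnmt2 mutant and 0.280 in wild type, a difference of -0.336 (95% interval -0.580 to -0.0926, Wald test with read-clustered errors, n = 1505 reads or more per library, adjusted p = 0.0206 over 3 stages). Without the all-C read it was -0.385, and among reads without the 7 copy differences -0.300, with Wald adjusted p-values of 0.00229 and 0.0556 from libraries of n = 1505 reads or more before any were left out, so that leaving out those copies ends the call. The call also ended with the thymine background subtracted, at -0.267, and with identical call patterns counted once, at -0.0453. Among reads that match the reference outside cytosines the call held, at -0.434 (Wald adjusted p = 0.0169, n = 799 reads or more per library). After 1 day the changes were 0.165 in the Dnmt2 mutant and 0.209 in wild type (difference -0.0443, 95% interval -0.264 to 0.175), and after 3 days -0.0852 in the Dnmt2 mutant and 0.113 in wild type (difference -0.199, 95% interval -0.426 to 0.0287). The copy differences ran in opposite directions between heat shock and standard in mutant and wild type, so the difference at heat shock, the copies of the libraries and a possible exchange of labels cannot be told apart.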

How the data were processed

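Reads of bisulfite PCR products were aligned to the LTR sequence by the authors, per the labels' descriptions. Genomic DNA was converted with a kit and amplified in a pair of successive rounds of PCR, per the labels' protocols, so reads can be copies of one molecule. Of the aligner and read filters the sources used here name none. The deposited matrices hold a score per read and cytosine, the code 0 for C, 1 for T and NA otherwise, with a closing line of percentages that was dropped. A second deposited score per read, T codes plus 0.5 per NA, served for a check only. Codes matched the deposited aligned bases in all 8 libraries.

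Levels were C over C and T calls. Whole reads were permuted between libraries 100000 times (NumPy 2.4.6); Fisher's exact test (SciPy 1.17.1) required 50 reads per cytosine in both libraries; the threshold was an adjusted p of 0.05. The methods were tested on simulated data in which each call was drawn separately. Links between calls of a read and PCR copies were thus not covered. Cytosines named were those past the threshold, the 10 highest by mean, and the 3 largest gains and falls per later stage; base differences named were up to 3 per later stage, those with the smallest p among those past the threshold against standard (none for 1 day). The members, lists and tests were chosen with earlier results of these data known. Alternatives are given in the closing section; leaving out reads with copy differences was added after seeing the data.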

Additional observations from a re-analysis of the deposited data

Results flagged for a closer look

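In a test over the reads of 1 library per genotype and stage, the change from standard to heat shock differed between mutant and wild type libraries. It was -0.0564 percentage points in the Dnmt2 mutant and 0.280 in wild type, a difference of -0.336 (Wald adjusted p = 0.0206, n = 1505 reads or more in each of the 4 libraries). Over the alternatives the difference ran from -0.434 to -0.0453, and 3 of them ended the call: identical call patterns counted once (Wald adjusted p = 0.925), reads with the copy differences left out (0.0556) and the thymine background subtracted (0.114), from libraries of n = 1505 reads or more before any were left out. Among reads that match the reference outside cytosines the call held, at -0.434 (Wald adjusted p = 0.0169, n = 799 reads or more per library). Copies of the LTR crossed the genotype labels of these libraries, so the difference, the copies and a possible exchange of labels cannot be told apart. The spread between libraries of a genotype and stage was not measured.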

How the results depend on the processing

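The 4 mutant libraries, set against wild type in some results, gave 48 results and 354 values under alternatives. Of these values 306 kept their direction and their side of the threshold (counts within 1.5 times), though not always their size. Of the rest, 28 reversed, 14 lost their call and 6 counts moved by over 1.5 times. Differences are in percentage points; for those that changed, the cause was not tested.

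Counting identical call patterns once leaves 260 to 345 patterns per library. It removes most fully converted reads, so its values are not levels over all reads. It reversed the level for heat shock against standard (0.209), 3 days against standard (0.0749) and 1 day against heat shock (-0.0801). By segment against standard it reversed the 5′ segment after heat shock (0.124) and the 3′ segment after heat shock (0.218), 1 day (-0.459) and 3 days (0.126), and by context CpG after 1 day (-0.525) and CHH after 3 days (0.306). The share of reads with C turned to -0.413 for 3 days against heat shock. Calls ended for the level of 3 days against 1 day (-0.0542), for reads with C at 1 day against standard (1.45), 1 day against heat shock (4.62) and 3 days against 1 day (-5.03), and for the mutant change at heat shock minus the wild type change (-0.0453). The count of cytosines called for 1 day against heat shock was 0, with Fisher's exact test.

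Keeping only reads that match the reference outside cytosines reversed the level of 3 days against standard (0.0612) and against heat shock (0.0954), the 5′ segment after 3 days (0.0777), CpG after 3 days (0.00517), CHH after heat shock (-0.0126), 1 day (0.000656) and 3 days (0.0528), reads with C at heat shock (0.484) and 3 days (1.63) against standard, and the mutant minus wild type change at 1 day (0.00455). Calls ended for the level of 1 day against heat shock (0.233) and 3 days against 1 day (-0.137), and for reads with C at 1 day against standard (4.33), 1 day against heat shock (3.84) and 3 days against 1 day (-2.70). For 3 days against 1 day 1 cytosine, C43, was then called, with 2.32% after 3 days against 0.748% after 1 day.

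Without the all-C read, 3 days against heat shock was 0.0200, and CHG and CHH after heat shock were -0.00402 and -0.0369. The 3 cytosines with neither C nor T in over 5% of reads of a mutant library were C42, C102 and C129. Without them, 3 days against heat shock was 0.0220, CHH after heat shock -0.0972 and CHH after 1 day 0.00995. CHH after 1 day was 6.95e-05 among reads called at 80% or more of cytosines and 0.00494 with the thymine background subtracted. That subtraction ended the calls for the level of 1 day against heat shock (0.215) and for the mutant minus wild type change at heat shock (-0.267), as did leaving out reads with the 7 copy differences, an alternative chosen after seeing the data (0.202 and -0.300). Among base differences averaging over 2% of reads, 5 were called for heat shock and 5 for 3 days against standard, 1 for 1 day against heat shock and 4 for 3 days against 1 day.

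No paired analysis was possible because each stage had 1 library and the labels give no replicate numbers. Leaving out a replicate was not possible for the same reason. At 1063 to 2275 reads per cytosine, the only difference called at a single cytosine in all reads was 1.42 percentage points, at C35. It is no limit of detection.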
